A study of Mus musculus with 6 samples.

Results

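Matrix metalloproteases are zinc-dependent enzymes that cut collagen, elastin and other proteins of the extracellular matrix, and the tissue inhibitors of metalloproteases (Timp genes) block them. The 10 genes described here are 8 proteases (Mmp2, Mmp3, Mmp8, Mmp9, Mmp12, Mmp13, Mmp14 and Mmp19) and 2 inhibitors (Timp1 and Timp3). They were listed by name, with earlier results of these data known, so their shares of calls are not those of a blind choice. They were read by 18 probe sets, out of 18193 genes measured. In background terms, Mmp8 and Mmp9 are known as proteases that neutrophils store in granules and Mmp12 as the elastase of macrophages, while Mmp2, Mmp3, Mmp14 and Timp3 are known from fibroblasts and other stromal cells of the lung. Mmp13, Mmp19 and Timp1 can come from either source. The enzymes are made as inactive precursors, so a transcript level is not a level of protease activity.

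RNA came from lung cells of 4-month-old female mice on a mixed Bl6/129 background, with 3 arrays labelled Bmi1 mutant (genotype given as Bmi1 null) and 3 labelled Bmi1 wild type. The Bmi1 protein belongs to a Polycomb complex that keeps genes silent. Cells of both genotypes were freed from the lung with dispase and collagenase, and those alive and negative for CD31 and CD45 were sorted, a gate meant to remove endothelial and hematopoietic cells. The labels call the arrays biological replicates without saying whether each is 1 mouse or a pool. The p-values weigh a group difference against the scatter among these 6 samples, which may not be the scatter among mice. All values are linear signal intensities of Affymetrix mouse arrays, whose number limits the precision.

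Transcripts of gated-out cells were present on all arrays. Ptprc, which encodes CD45, read 5048, 6708 and 5544 in the mutant-labelled arrays, against 6639, 8507 and 8002 in wild type. The 5 leukocyte markers summed to 39851 to 49266 in the mutant-labelled arrays and 43028 to 55174 in wild type (median log2 difference -0.22), and the 7 endothelial markers to 16061 to 17988 in the mutant-labelled arrays and 12967 to 21736 in wild type (0.10). Of 5 markers of alveolar epithelium (median 0.15) and 4 of mesothelium (0.02), 0 passed the test described below. The Bmi1 signal was no lower in the mutant-labelled arrays: its brighter probe set averaged 1446 ± 151 there and 1047 ± 102 in wild type (SD, n = 3 each), and the other 665 ± 147 and 588 ± 83.4. Where the mutation lies is not in the labels, and probes outside a deletion check nothing, so each direction below rests on the labels. In bulk samples of this kind, fewer cells of a type and less RNA per cell cannot be told apart.

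Mmp13, Mmp12, Mmp3 and Mmp8 lie in a cluster of 10 metalloprotease genes on chromosome 9, and 3 of these 4 carry near their start a TGANTCA motif, the letters bound by AP-1 (Fos and Jun dimers), a known inducer of metalloprotease genes. The 250 bases before the annotated start are shown for these 4 genes because Mmp8 and Mmp12 passed the test described next and Mmp3 and Mmp13 did not. The sequences are RefSeq's, build GRCm38.p6, plus strand, 5′ to 3′, with the motif in capitals. Mmp12 has 2 annotated starts, of which the downstream one is shown.
Mmp13, chr9:7272264-7272513: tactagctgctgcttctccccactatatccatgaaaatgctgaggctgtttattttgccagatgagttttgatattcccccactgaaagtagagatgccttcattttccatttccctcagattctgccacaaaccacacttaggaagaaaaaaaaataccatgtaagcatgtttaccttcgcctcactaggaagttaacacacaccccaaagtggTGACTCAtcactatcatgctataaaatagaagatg
Mmp12, chr9:7347124-7347373: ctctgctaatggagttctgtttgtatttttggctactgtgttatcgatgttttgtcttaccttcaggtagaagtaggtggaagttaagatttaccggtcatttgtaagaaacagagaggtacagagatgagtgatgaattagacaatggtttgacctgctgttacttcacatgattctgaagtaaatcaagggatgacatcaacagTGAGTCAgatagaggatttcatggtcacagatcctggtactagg
Mmp3, chr9:7445572-7445821: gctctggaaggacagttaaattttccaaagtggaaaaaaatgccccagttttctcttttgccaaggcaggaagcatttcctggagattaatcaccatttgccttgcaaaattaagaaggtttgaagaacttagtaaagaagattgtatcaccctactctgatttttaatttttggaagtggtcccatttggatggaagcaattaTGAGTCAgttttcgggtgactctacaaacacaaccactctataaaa
Mmp8, chr9:7558179-7558428: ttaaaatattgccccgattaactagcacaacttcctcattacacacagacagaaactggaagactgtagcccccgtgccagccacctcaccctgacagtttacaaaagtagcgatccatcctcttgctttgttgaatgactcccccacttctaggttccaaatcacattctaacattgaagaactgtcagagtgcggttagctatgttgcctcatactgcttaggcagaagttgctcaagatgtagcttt
The motif begins 35 bases before the start in Mmp13, 44 in Mmp12 and 46 in Mmp3. TGANTCA reads the same on both strands. It was not found in the window of Mmp8, in that of the upstream start of Mmp12, or in those of Mmp14, Timp1 and Timp3. Of 32851 promoter windows of this length, 6.75% held it. Windows were matched for 7 of the 10 genes.

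Mmp8 and Mmp12 rose in the mutant-labelled arrays, and they were the members that passed the test. Each gene was compared with limma on log2(signal + 16), with p-values adjusted by Benjamini-Hochberg over all genes, and called at an adjusted p under 0.05. By this rule 2 of 10 members were called higher, where 0.412% of the 18193 genes were called higher, and 0 were called lower, where 0.511% of all genes were. Both calls were lost with an offset of 1 in place of 16 (adjusted p of 0.0636 for Mmp8 and 0.0739 for Mmp12). At an unadjusted p under 0.05, 7 members were higher, where 7.51% of all genes were.

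Mmp8, the neutrophil collagenase, read 691, 616 and 463 in the mutant-labelled arrays, against 143, 188 and 176 in wild type. The groups did not overlap, and the dimmest mutant-labelled array lay well above the brightest wild-type one. The mean was 590 ± 116 in the mutant-labelled arrays and 169 ± 23.2 in wild type (SD, n = 3 each), 3.5 times higher. The log2 difference was 1.70 ± 0.21 (SE, limma adjusted p = 0.0243). Mmp8 was still called without mutant replicate 3 (adjusted p = 0.0371) but not without mutant replicate 1 (0.0932), mutant replicate 2 (0.0777), wild-type replicate 1 (0.0622), wild-type replicate 2 (0.102) or wild-type replicate 3 (0.107), with a log2 difference between 1.58 and 1.86 in these 6 fits.

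Mmp12, the macrophage elastase, read 1721, 1086 and 1536 in the mutant-labelled arrays and 245, 409 and 336 in wild type. Again the groups did not overlap, and within each of them the highest array read 1.59 (mutant-labelled) and 1.67 (wild type) times the lowest. Its mean of 1447 ± 327 in the mutant-labelled arrays was 4.39 times that of 330 ± 82 in wild type (SD, n = 3 each). The log2 difference was 2.08 ± 0.26 (SE, limma adjusted p = 0.0249). The call held without mutant replicate 2 (adjusted p = 0.0461) and was lost without mutant replicate 1 (0.0987), mutant replicate 3 (0.0758), wild-type replicate 1 (0.0603), wild-type replicate 2 (0.0847) or wild-type replicate 3 (0.113), while the log2 difference stayed between 1.89 and 2.28.

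Mmp9, gelatinase B, which cuts denatured collagen and type IV collagen, read 938, 2185 and 627 in the mutant-labelled arrays, against 383, 446 and 285 in wild type. The groups did not overlap, but mutant replicate 2 was 3.49 times as bright as mutant replicate 3. The log2 difference was 1.53 ± 0.44 (SE), with an interval from 0.48 to 2.59, and missed the threshold (limma adjusted p = 0.186). Without mutant replicate 2 it was 1.04. The second Mmp9 probe set had the same order among the mutant-labelled arrays, with 1117, 2164 and 593 there and 449, 341 and 266 in wild type, and a log2 difference of 1.67.

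**Figure D1:**
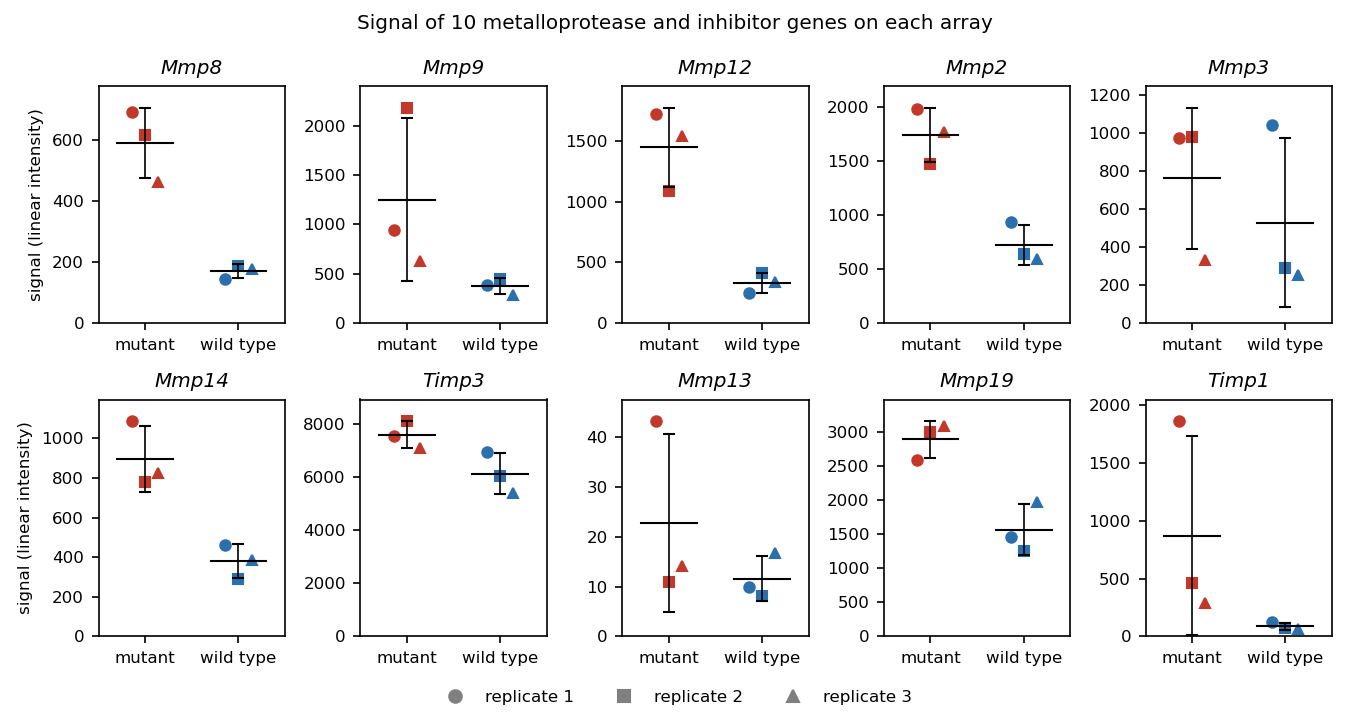
Signal (linear intensity, y axes from 0) of each of the 10 genes on each array. The 3 mutant-labelled arrays are on the left in red and the 3 wild-type arrays on the right in blue. Symbols give the replicate number, which the titles do not call a pairing of the genotypes, and black lines the mean ± SD. Mmp8 and Mmp12 separate the genotypes with a small spread, Mmp9 and Timp1 separate them with 1 mutant-labelled array far above the other 2, and Mmp3 and Mmp13 overlap.

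Of the neutrophil markers, 1 of the 7 measured (9 listed) was called. All 7 had a higher mean in the mutant-labelled arrays, with a median log2 difference of 1.46, against 0.006 over all genes. Their summed signal ranged from 24142 to 41399 in the mutant-labelled arrays and from 11107 to 15284 in wild type, and the dimmest of them averaged 316 over the 6 arrays. The granule protein gene Ltf was the called one, at 3490, 3168 and 2169 in the mutant-labelled arrays, against 1018, 672 and 767 in wild type (log2 difference 1.82, limma adjusted p = 0.0324). Ltf kept its call without mutant replicate 3 (0.0428) and lost it without mutant replicate 1 (0.119), mutant replicate 2 (0.0981), wild-type replicate 1 (0.0583), wild-type replicate 2 (0.133) or wild-type replicate 3 (0.134). The part of these markers in the Mmp8 and Mmp9 values was not tested.

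The order of the mutant-labelled arrays differed between neutrophil genes. The chemokine receptor gene Cxcr2 read 1187, 2384 and 792 there, against 319, 577 and 348 in wild type, and was brightest in mutant replicate 2, as Mmp9 was. Cxcr2 is also among the genes chosen below for their likeness to Mmp9 over these arrays, so the shared peak is part of that choice. The granule gene Ngp, named after its values were seen, read 1975, 382 and 1398 in the mutant-labelled arrays, against 140, 462 and 306 in wild type. It was dimmest in mutant replicate 2. Mmp8 followed neither of these 2 genes, and its 3 mutant-labelled values lay within a factor of 1.49. Its order among these arrays was that of the granule gene Ltf, whose values lay within a factor of 1.61. No other measured neutrophil marker had that order.

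Of the 6 measured alveolar macrophage markers 1 was called, and all 6 had a lower mean in the mutant-labelled arrays (log2 differences of -2.19 to -0.01, median -0.44), with summed signals of 31218 to 39899 there and 40306 to 43568 in wild type. Siglecf, a surface lectin gene of alveolar macrophages, fell to 580, 1188 and 742 in the mutant-labelled arrays, against 3205, 3236 and 4957 in wild type (log2 difference -2.19, limma adjusted p = 0.0354). It stayed called without mutant replicate 2 (0.044), and not without mutant replicate 1 (0.114), mutant replicate 3 (0.0947), wild-type replicate 1 (0.0702), wild-type replicate 2 (0.132) or wild-type replicate 3 (0.128). Of the 7 measured markers of monocytes and interstitial macrophages 0 were called and 5 had a higher mean, with log2 differences of -0.49 (Cx3cr1) to 1.62 (C1qa, limma adjusted p = 0.209) and a median of 0.27. C1qb had the smallest p of that list (1.29, limma adjusted p = 0.0894). The list had summed signals of 17701 to 25614 in the mutant-labelled arrays and 11337 to 19203 in wild type. No marker in these 3 lists was at or near 0, and their part in the Mmp12 value was not tested.

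Stromal members had positive differences, and none passed the test over all genes. Mmp2, gelatinase A, read 1974, 1469 and 1768 in the mutant-labelled arrays and 936, 636 and 588 in wild type. The groups did not overlap, and wild-type replicate 1 lay nearest to the mutant-labelled arrays. The mean was 1737 ± 254 in the mutant-labelled arrays and 720 ± 189 in wild type (SD, n = 3 each), with a log2 difference of 1.27 ± 0.23 (SE, interval 0.73 to 1.82, limma adjusted p = 0.0666). The second Mmp2 probe set gave 1.34 ± 0.28.

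Mmp14 encodes a membrane-bound protease that activates the Mmp2 precursor. Its brightest probe set read 1087, 778 and 826 in the mutant-labelled arrays, against 463, 290 and 387 in wild type. All 3 of its probe sets separated the genotypes, with log2 differences of 1.21 ± 0.24, 0.97 ± 0.18 and 0.96 ± 0.22 (SE, fitted as separate probe sets). In the fit over genes, Mmp14 missed the threshold (limma adjusted p = 0.0733). With the mean of its probe sets it was called (log2 difference 1.05, adjusted p = 0.0419), and with dim probe sets left out so were Mmp14 (adjusted p = 0.0354) and Mmp2 (adjusted p = 0.0321). Each of them was called in 3 of 16 alternative settings, and neither when any single array was left out. The limma adjusted p was then 0.0891 to 0.21 for Mmp14 and 0.0611 to 0.216 for Mmp2.

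Mmp3, stromelysin-1, read 974, 977 and 332 in the mutant-labelled arrays and 1040, 289 and 252 in wild type. The groups overlapped, since wild-type replicate 1 was the brightest array of all and mutant replicate 3 lay close to the other two wild-type arrays. The log2 difference was 0.66 ± 0.63 (SE), and its interval of -0.83 to 2.16 includes a decrease as well as a rise as great as that of Mmp12 (limma adjusted p = 0.698). Without wild-type replicate 1 the log2 difference was 1.29 (adjusted p = 0.335), without mutant replicate 3 it was 1.17 (adjusted p = 0.465), and without mutant replicate 1, mutant replicate 2, wild-type replicate 2 or wild-type replicate 3 it was 0.41, 0.41, 0.40 or 0.30.

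Timp3, an inhibitor that binds to the matrix, was bright on all arrays. The brightest of its 4 probe sets read 7576, 8125 and 7124 in the mutant-labelled arrays, against 6967, 6053 and 5406 in wild type. These groups lay just apart, while the other 3 probe sets overlapped. The log2 differences of the 4 probe sets ran from 0.31 to 0.62. In the fit over genes, that of the brightest had an interval of -0.09 to 0.71 (limma adjusted p = 0.46).

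Of 9 fibroblast markers 1 was called, and of 8 markers of smooth muscle and pericytes 0. All 9 fibroblast markers, of which the dimmest averaged 334, had a higher mean in the mutant-labelled arrays (log2 differences of 0.31 to 1.37, median 0.68). Their summed signals were 38291 to 40214 there and 17376 to 30837 in wild type. The 8 markers of smooth muscle and pericytes had log2 differences of 0.33 to 2.85 (median 1.34), with summed signals of 9224 to 11123 in the mutant-labelled arrays and 2792 to 8169 in wild type. Every mutant-labelled array lay above every wild-type array for 3 of the 9 fibroblast markers and 5 of the 8 others. Of all genes 10.4% did so. In both lists wild-type replicate 1 was the brightest wild-type array, as it was for Mmp2, Mmp3, Mmp14 and Timp3. One other Mmp14 probe set differed, at 340, 310 and 359 in wild type. The endothelial sum was also highest in wild-type replicate 1 (21736, against 12967 and 15238), while the leukocyte, mesothelial and alveolar epithelial sums were not. The collagen gene Col1a1 was the called marker, at 5406, 7224 and 5569 in the mutant-labelled arrays, against 2746, 2455 and 1831 in wild type (log2 difference 1.37, limma adjusted p = 0.0482). Its call was lost when any single array was left out (adjusted p of 0.13, 0.112 and 0.105 without mutant replicates 1, 2 and 3, and of 0.0725, 0.158 and 0.149 without wild-type replicates 1, 2 and 3). The part of these markers in the stromal values was not tested.

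**Figure D2:**
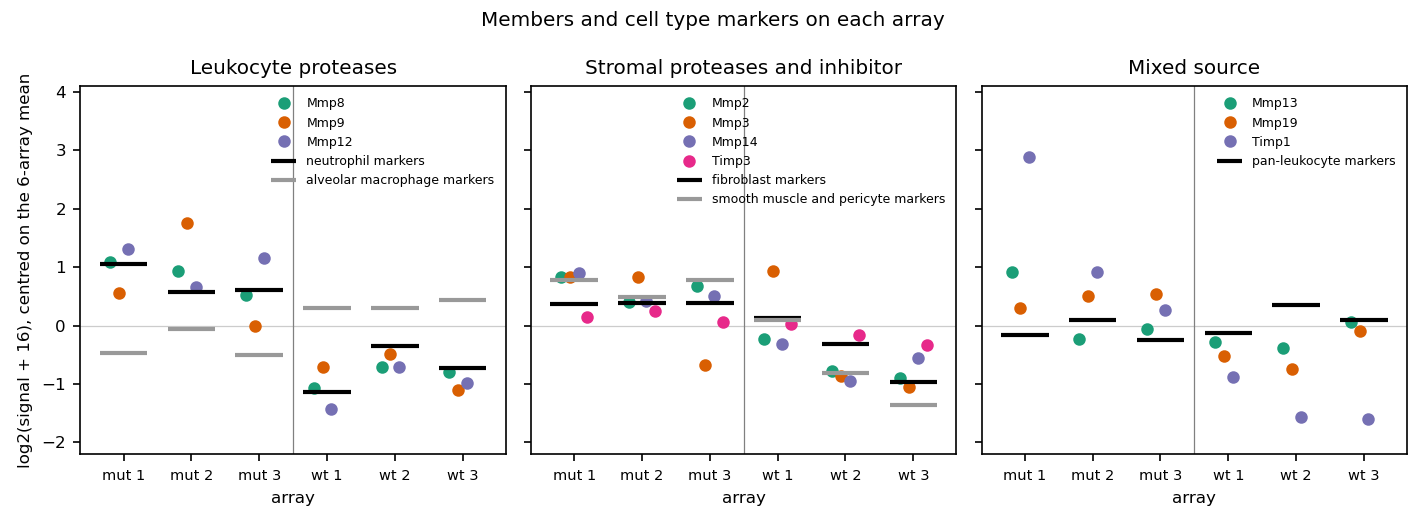
Values on each array of log2(signal + 16), centred on the mean of the 6 arrays, for the members (points) and the mean of a marker list (bars), with mutant-labelled arrays (mut) left of wild-type arrays (wt). Mmp9 peaks in mutant replicate 2 and Timp1 in mutant replicate 1, and wild-type replicate 1 is the highest wild-type array for Mmp2, Mmp3, Mmp14, Timp3 and both stromal marker lists.

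Members of mixed source differed most among themselves. Timp1, a secreted inhibitor that cytokines induce in many cells, read 1863, 465 and 290 in the mutant-labelled arrays and 123, 70.4 and 68 in wild type. The groups did not overlap, but mutant replicate 1 was 6.41 times as bright as mutant replicate 3. Timp1 had the greatest log2 difference of the 10 genes, 2.70 ± 0.64 (SE, interval 1.18 to 4.22), and missed the threshold (limma adjusted p = 0.122). Without mutant replicate 1 the log2 difference was 1.94.

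Mmp19, a secreted protease found in macrophages and fibroblasts, read 2584, 3006 and 3083 in the mutant-labelled arrays, against 1462, 1253 and 1977 in wild type. The groups did not overlap, and the spread within the mutant-labelled arrays was small. The log2 difference was 0.90 ± 0.21 (SE, interval 0.40 to 1.40, limma adjusted p = 0.121), and the second probe set gave 1.05 ± 0.23. Mmp13, collagenase 3, was dim, at 43.3, 10.9 and 14.2 in the mutant-labelled arrays and 9.95, 8.13 and 16.8 in wild type. Its groups overlapped and its log2 difference of 0.41 (interval -0.35 to 1.17, limma adjusted p = 0.628) rests on mutant replicate 1, without which it was 0.06. Mmp13 was the member that a filter on dim probe sets removed, and the other 9 passed it.

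**Figure D3:**
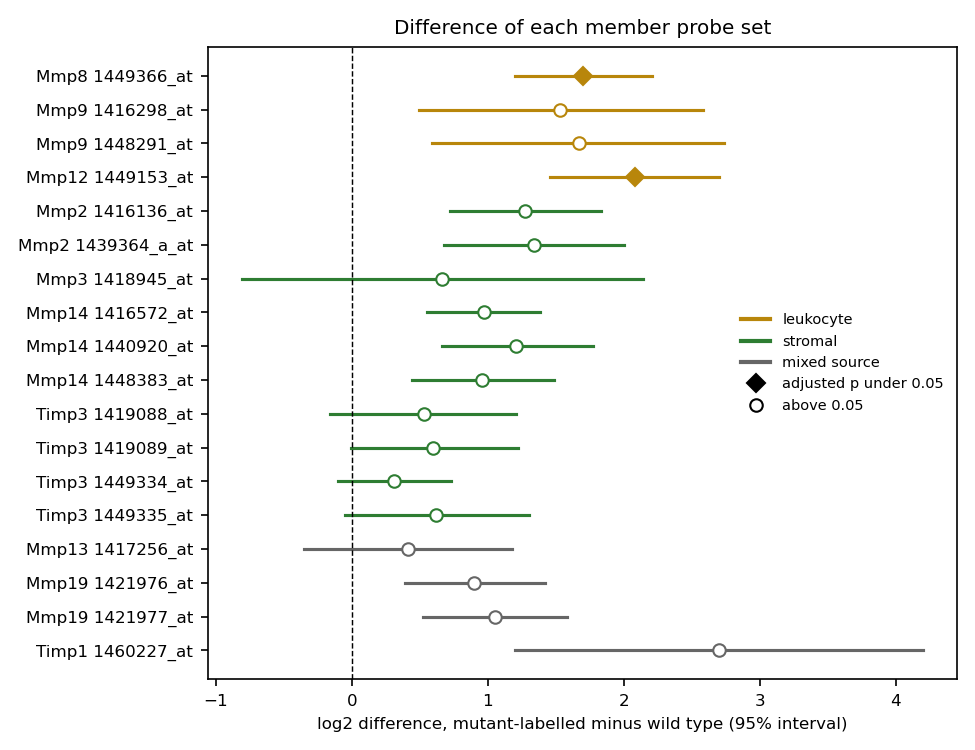
Log2 difference (mutant-labelled minus wild type, x axis) of each of the 18 member probe sets with its 95% interval from limma. Colours give the source group assigned from background knowledge, which these arrays do not measure. Filled diamonds mark an adjusted p under 0.05 over all probe sets. All 18 lie above 0, and the filled ones are Mmp8 and Mmp12.

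Across the 10 genes, 10 log2 differences were positive, with a median of 1.24, where 9232 of 18193 genes were positive with a median of 0.006. In 8 of 10 every mutant-labelled array lay above every wild-type array, where 10.4% of all genes did so. Fitted as separate probe sets, 2 of 18 were called higher (Mmp8 and Mmp12), against 0.212% of 34945 probe sets, and 13 of 18 did not overlap, against 8.93%. The leukocyte proteases had log2 differences of 1.53 to 2.08, and the 4 stromal members of 0.31 to 1.27. On each array, the mean log2 value of Mmp8, Mmp9 and Mmp12 was 10.04, 10.17 and 9.61 in the mutant-labelled arrays, against 7.99, 8.42 and 8.09 in wild type. That of Mmp2, Mmp3 and Mmp14 was 10.34, 10.04 and 9.65 in the mutant-labelled arrays, against 9.61, 8.62 and 8.65 in wild type. The leukocyte means did not overlap between the genotypes by a wide margin, while for the stromal means mutant replicate 3 lay just above wild-type replicate 1. Whether these groups of members differ from each other was not tested.

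In chromosomal order the chromosome 9 cluster holds Mmp13, Mmp12, Mmp1b, Mmp3, Mmp1a, Mmp10, Mmp8, Mmp27, Mmp20 and Mmp7 (RefSeq, GRCm38.p6), of which 9 were measured. The called genes Mmp12 and Mmp8 are separated by Mmp1b, Mmp3, Mmp1a and Mmp10. The collagenase genes Mmp1b and Mmp1a and the stromelysin gene Mmp10 reached at most 7.06, 8.1 and 29.1 on any array, and Mmp20 and Mmp7 at most 27.9 and 39.5, with 0 of these 5 called. Mmp1b, Mmp1a, Mmp10 and Mmp20 are named for their place in the cluster, after their values were seen.

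The AP-1 subunits were 0 of 7 called, with log2 differences from 0.00 to 0.27. Their motif was found for 3 of the 4 members in the cluster, in Mmp12 at the downstream start only. Fos read 13071, 13074 and 12985 in the mutant-labelled arrays and 11697, 11960 and 11650 in wild type (log2 difference 0.15, limma adjusted p = 0.705). Junb had the smallest p of the list (0.27, limma adjusted p = 0.603). A match of letters in a promoter is a description and not evidence of binding.

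Among the other genes of the extracellular protease system, Lcn2 passed the test. Lcn2, a neutrophil and epithelial lipocalin that in humans binds the MMP9 protein, rose to 6586, 3054 and 3505 in the mutant-labelled arrays, against 559, 529 and 894 in wild type (log2 difference 2.66 ± 0.35 SE, limma adjusted p = 0.0284). The groups did not overlap. Its call was lost when any single array was left out (adjusted p of 0.0628, 0.0595 and 0.069 without mutant replicates 1, 2 and 3, and of 0.0725, 0.132 and 0.0866 without wild-type replicates 1, 2 and 3), with log2 differences of 2.32 to 2.89. It was the 1 called gene of 7 partners and processing enzymes, a list with a median of 0.55.

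Of the 10 other metalloproteases measured, 0 were called and the median log2 difference was 0.21, with 6 of them averaging under 100. Mmp23 had the smallest p, at 683, 416 and 483 in the mutant-labelled arrays and 243, 199 and 263 in wild type (1.09, limma adjusted p = 0.0917), followed by Mmp7 (0.67, limma adjusted p = 0.266), which was dim. Among 4 other inhibitors 0 were called. Timp2, which bridges Mmp14 and the Mmp2 precursor, differed by 0.48 (limma adjusted p = 0.331). Timp4 read 1218, 588 and 178 in the mutant-labelled arrays and 221, 141 and 186 in wild type, so that mutant replicate 3 lay within the wild-type range (1.42, limma adjusted p = 0.359).

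The Adamts proteases, which cut proteoglycans and other matrix proteins, were 0 of 15 called with a median of 0.36. Of the 15, 7 averaged under 100 over the 6 arrays, where the offset understates differences. In 4 of 15 every mutant-labelled array lay above every wild-type array, where 10.4% of all genes did so. Adamts8 read 501, 445 and 409 in the mutant-labelled arrays, against 232, 168 and 87.3 in wild type (1.47, limma adjusted p = 0.103), and Adamts12 had a log2 difference of 1.82 (limma adjusted p = 0.112). Of 6 plasminogen activation genes, 3 of which averaged under 100, 0 were called (median 0.14). Urokinase, Plau, was at 0.78 (limma adjusted p = 0.328) and tissue plasminogen activator, Plat, at 0.66 (limma adjusted p = 0.46). Of 7 cathepsins 0 were called (median 0.22), with the lysosomal proteases Ctsl at 0.61 (limma adjusted p = 0.178) and Ctsd at 0.26 (limma adjusted p = 0.6).

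The neutrophil serine proteases were dim on all arrays. The elastase gene Elane read 1.83, 19.6 and 1.08 in the mutant-labelled arrays and 1.85, 22.2 and 10.7 in wild type, and proteinase 3, Prtn3, read 37.9, 69.3 and 11.1 in the mutant-labelled arrays and 6.7, 19.5 and 18.4 in wild type. Of the 3 genes of this list 0 were called, at a median of 0.09. Transcripts of these genes are known to be made mainly by granulocyte precursors in the bone marrow.

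**Figure D4:**
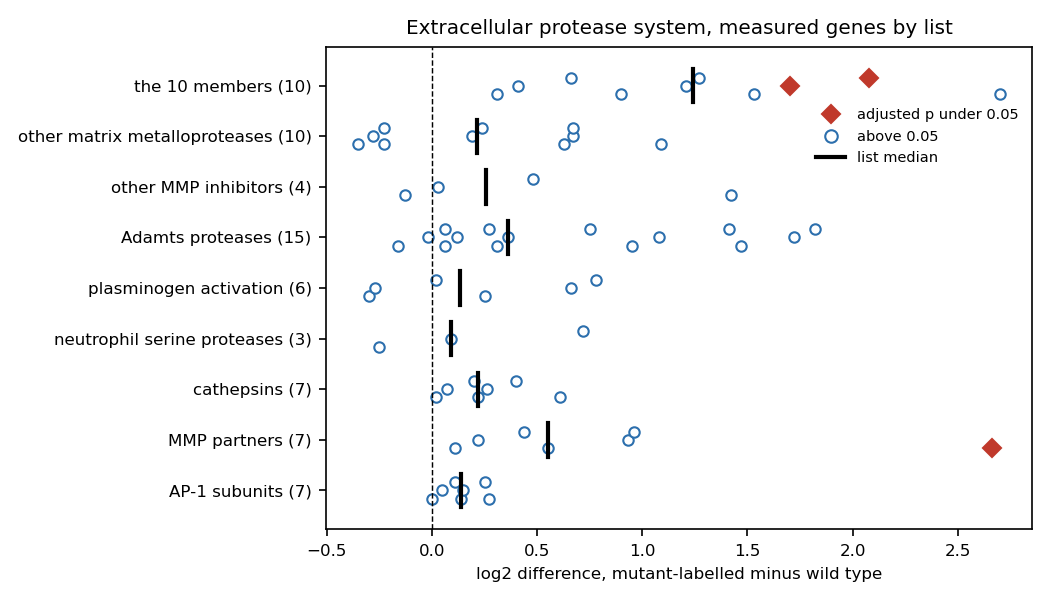
Log2 difference (mutant-labelled minus wild type, x axis) of each measured gene of the extracellular protease system by list, with the number of genes in brackets, the list median as a black bar and called genes as red diamonds. The 10 members have a median of 1.24, the other lists medians of 0.09 to 0.55, and the called genes are Mmp8, Mmp12 and Lcn2. Genes averaging under 100 were 1 of 10 members, 6 of 10 other metalloproteases and 7 of 15 Adamts genes. They were also 3 of 6 plasminogen activation genes and 3 of 3 neutrophil serine proteases. The offset understates differences of such dim genes, so these medians are not like for like.

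The genes with the most similar pattern were sought among 11482 genes with a mean signal of at least 100, by the root mean square difference of centred log2 values over the 6 arrays. This measure favours genes that peak on the same array, so a shared peak named here is part of the choice. It also includes the genotype difference, so genes with a like difference come out near even if their order within a genotype differs. Mmp8, for example, was brightest in mutant replicate 1, and its nearest gene in mutant replicate 2. For Mmp9 they were Slfn4 (0.15) and the neutrophil receptor gene Cxcr2 (0.21), both brightest in mutant replicate 2. For Mmp8 they were Cirbp (0.15), which encodes a cold-inducible RNA-binding protein, and Ccdc122 (0.18). For Mmp12 they were the chemokine gene Ccl12 (0.28) and the transcription factor gene Pou4f1 (0.29).

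Mmp2 and Mmp14 shared a near neighbour in Spin4, at 0.11 log2 units for both. The other neighbour was Dclk1 for Mmp2 (0.13) and Pde9a for Mmp14 (0.09). Mmp3 was nearest to Zbtb16 (0.26) and Pi15 (0.27), and Mmp19 to Rnf128 (0.07) and Slc38a6 (0.10). The nearest genes to Timp1 were Aldh1a3 (0.42), a retinaldehyde dehydrogenase gene at 1107, 338 and 78.5 in the mutant-labelled arrays and 59.8, 27.3 and 45 in wild type, and the acute phase gene Orm1 (0.49), at 1162, 246 and 139 in the mutant-labelled arrays and 15, 23.1 and 15.2 in wild type. Both were brightest in mutant replicate 1, as Timp1 was.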

How the data were processed

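Per the submitters' processing notes, the authors made the deposited linear intensities with Affymetrix Expression Console 1.1; how probes were summarized is not given in the sources used here. Trimmed means (2% off each end) were 500.0023 to 500.0025 on all arrays, which shows a common scaling, so a shift of all genes together cannot be seen. Medians ranged from 97.4 to 114.2. The 10 members and all lists were chosen with earlier results of these data known.

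Of 45101 probe sets, the 34945 with 1 gene symbol in the platform annotation were used; 64 controls, 932 with several symbols and 9160 with none were not. Each of 18193 genes was read from its brightest probe set by mean log2(signal + 16); the offset understates folds of dim genes. Mutant-labelled and wild-type arrays were compared by limma 3.58.1 (lmFit, eBayes, no covariate, R 4.3.3), with 95% intervals and Benjamini-Hochberg adjustment over all genes, and again over all 34945 probe sets. The code was tested on simulated data, where it called 23.0% of log2 changes of 1 and 61.8% of log2 changes of 2. A gene that was not called may therefore still have changed. Genes were named by rule: members, called genes of each pathway list or else the 2 with the smallest p, up to 3 markers a list, and the 2 genes most similar to a member. Alternatives were normalization, offset, a filter on dim probe sets (signal of 100 on 3 arrays), joining of probe sets, variance prior, array weights, a replicate block and leaving out each array.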

Additional observations from a re-analysis of the deposited data

How the results depend on the processing

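All 10 member genes kept a positive log2 difference under every alternative in which they were measured. Of the members, 2 were called with quantile normalization, median centring, array weights and without probe sets ending in _s_at or _x_at, and 3 with the mean of probe sets and with an offset of 64. The count was 4 with dim probe sets left out, 6 with a trended robust variance prior, 0 with an offset of 1 (2333 of all genes had an unadjusted p under 0.05 in that limma fit) and 0 to 1 when an array was left out. Of the member probe sets 5, 8, 0 and 0 were called under these last 4 settings, in that order. Over all genes, the higher and lower calls were 163 and 180 with dim probe sets left out (11566 genes tested), 213 and 225 with the trended prior, 120 and 145 with an offset of 64, and 12 and 21 with an offset of 1. Leaving out an array gave 1 to 35 higher and 1 to 41 lower. Fewer arrays, and for the filter fewer genes tested, are part of these settings by construction; for the others the cause was not tested.

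The replicate numbers come from the sample titles, which do not say whether same-numbered arrays belong together. Same-numbered arrays had low correlations of deviations (0.07, 0.05 and 0.03), but every array correlated best with its own number. Whether the arrays are paired is therefore not known. With the replicate block limma called 0 member genes, 0 member probe sets and 0 genes either way over all genes (2611 at an unadjusted p under 0.05), with adjusted p of 0.0908 for Mmp8 and 0.102 for Mmp12.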
